A study of Homo sapiens with 6 samples.

Results

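The genes described here are the proteasome genes, taken as the protein-coding genes whose symbols run from PSMA to PSMG followed by a number. The rule found 49 genes of the 58735 in the table, among 19951 that are protein-coding. By role they were 8 alpha subunits (PSMA) and 11 beta subunits (PSMB) of the 20S core, 6 ATPases (PSMC) and 14 non-ATPase genes (PSMD) of the 19S cap, 4 activators (PSME), 1 inhibitor (PSMF1) and 4 assembly chaperones of the core (PSMG). PSMC3IP met the rule by its letters alone. It is a cofactor of homologous recombination and no part of the proteasome, so it was counted under the rule and is described apart.

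RNA was sequenced from 6 libraries of a human colorectal cancer cell line, 3 control libraries (labelled Nc) and 3 with knockdown of CNOT7 by a stably expressed short hairpin RNA (labelled sh). CNOT7 is a deadenylase of the CCR4-NOT complex, which shortens the poly(A) tails of mRNAs. The treatment field of the labels reads No for every library. The labels name the line SW480, whereas the study's text names HCT116 for its RNA sequencing. The sources do not say which hairpin is in which library, so the knockdown group could hold more than a single hairpin. The labels do not say whether libraries of a group came from separate cultures, so the p-values measure the spread between these libraries, which may be technical.

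The proteasome is the large protease that degrades proteins tagged with ubiquitin. Its barrel-shaped core is built of rings of alpha and beta subunits, and the cutting sites lie inside on the beta subunits PSMB5, PSMB6 and PSMB7, which interferon can replace with PSMB8, PSMB9 and PSMB10. The 19S cap recognises ubiquitin, removes it and uses a ring of ATPases to unfold the protein and thread it into the core. Dividing cells such as these express most of the set, and the transcription factor NFE2L1 is known to drive the genes together when the protease is inhibited.

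CNOT7 was measured first, as a check of the labels. Its TMM-normalised level, in CPM (counts scaled to 1000000 per library), was 169, 191 and 176 in control replicates 1 to 3 and 43.4, 47.2 and 38.6 in knockdown replicates 1 to 3. The knockdown level was 24.1% of control, a log2 fold change of -2.05 (SE 0.0734, adjusted p = 2.6e-12, edgeR quasi-likelihood test, n = 3 per group), and the groups did not overlap. All log2 fold changes below are knockdown minus control from the same fit over all 17574 tested genes, with Benjamini-Hochberg adjustment over them and a threshold of 0.05.

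The libraries held 23788451 to 25982493 counts in control and 27523812 to 29104872 in knockdown, so that depth and group cannot be told apart. Of the 9 epithelial markers checked, EPCAM, KRT8, KRT18, KRT19, CDX2, VIL1 and CDH1 were expressed and KRT20 and CDX1 were at or near 0. The summed list was 5554 to 5972 CPM in control and 5132 to 5683 CPM in knockdown, with VIL1 and CDH1 higher (log2 fold change 0.72 and 0.51) and KRT8 and KRT19 lower (-0.15 and -0.18). Markers of other cells were low: the 4 leukocyte markers summed to 0.21 to 1.05 CPM in control and 0.99 to 1.34 CPM in knockdown, the 3 fibroblast markers to 7.39 to 9.70 and 8.81 to 9.67 CPM, and the 3 endothelial markers to 1.64 to 2.33 and 2.62 to 3.44 CPM. PTPRC and CD68 were at or near 0 and DCN was at 0 in every library. The part of these shifts in the proteasome results was not tested.

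All 6 ATPase genes passed the test as lower, and their promoters are shown for that reason. The direction alone was not particular to them. All 14 non-ATPase genes, the 7 beta genes PSMB1 to PSMB7 and all 4 activators were below 0 as well. Each sequence runs 5′ to 3′ on the gene's strand, from 250 bases before to 50 bases after the first transcription start that RefSeq lists on GRCh38.p14, and capitals mark the motif matches described after them.
PSMC1: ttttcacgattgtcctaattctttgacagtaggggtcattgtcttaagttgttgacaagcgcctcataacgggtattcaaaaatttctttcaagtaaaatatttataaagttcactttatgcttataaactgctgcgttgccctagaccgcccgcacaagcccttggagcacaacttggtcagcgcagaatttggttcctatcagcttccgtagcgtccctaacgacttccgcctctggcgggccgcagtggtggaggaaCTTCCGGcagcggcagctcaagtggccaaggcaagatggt
PSMC2: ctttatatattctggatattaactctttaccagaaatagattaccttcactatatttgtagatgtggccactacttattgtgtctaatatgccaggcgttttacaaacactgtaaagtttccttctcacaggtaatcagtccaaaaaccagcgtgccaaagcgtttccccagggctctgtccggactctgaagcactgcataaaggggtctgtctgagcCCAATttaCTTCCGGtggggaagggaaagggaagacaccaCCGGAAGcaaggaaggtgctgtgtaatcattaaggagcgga
PSMC3: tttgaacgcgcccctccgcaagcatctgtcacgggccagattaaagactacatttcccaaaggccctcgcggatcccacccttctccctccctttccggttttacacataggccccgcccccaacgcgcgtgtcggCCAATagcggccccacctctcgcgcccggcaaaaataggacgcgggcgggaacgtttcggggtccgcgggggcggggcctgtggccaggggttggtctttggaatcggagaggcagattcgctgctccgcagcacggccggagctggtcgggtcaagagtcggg
PSMC4: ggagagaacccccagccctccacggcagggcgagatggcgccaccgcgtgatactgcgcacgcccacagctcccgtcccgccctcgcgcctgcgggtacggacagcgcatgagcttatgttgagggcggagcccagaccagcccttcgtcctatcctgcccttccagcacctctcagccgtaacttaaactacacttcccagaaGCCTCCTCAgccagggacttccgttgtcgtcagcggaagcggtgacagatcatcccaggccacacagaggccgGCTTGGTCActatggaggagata
PSMC5: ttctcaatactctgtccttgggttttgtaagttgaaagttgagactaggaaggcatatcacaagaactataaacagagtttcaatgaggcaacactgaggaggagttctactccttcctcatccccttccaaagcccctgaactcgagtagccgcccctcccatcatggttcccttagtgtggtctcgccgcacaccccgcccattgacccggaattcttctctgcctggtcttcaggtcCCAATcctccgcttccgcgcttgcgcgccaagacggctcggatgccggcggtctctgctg
PSMC6: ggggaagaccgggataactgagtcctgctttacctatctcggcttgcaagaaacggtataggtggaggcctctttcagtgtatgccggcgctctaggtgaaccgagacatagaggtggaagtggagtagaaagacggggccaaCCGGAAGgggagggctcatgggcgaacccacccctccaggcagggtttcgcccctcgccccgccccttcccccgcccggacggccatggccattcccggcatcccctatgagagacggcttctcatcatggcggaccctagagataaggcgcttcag

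These windows lie at chr14:90256303-90256602 on the plus strand for PSMC1, chr7:103347393-103347692 on the plus strand for PSMC2, chr11:47426390-47426689 on the minus strand for PSMC3, chr19:39970915-39971214 on the plus strand for PSMC4, chr17:63827181-63827480 on the plus strand for PSMC5, chr14:52706950-52707249 on the plus strand for PSMC6. In both strands of each window 4 motifs were searched: TGACNNNGC and TGAGNNNGC, the core of the antioxidant response element bound by NFE2L1 and NFE2L2, CCAAT, bound by NF-Y, and CCGGAAG, an ETS core. The PSMC4 promoter held both forms of the response element core and the other 5 held none. CCAAT was found in those of PSMC2, PSMC3 and PSMC5, and the ETS core in those of PSMC1, PSMC2 and PSMC6. No matches overlapped in these windows. A match describes letters and is not a site shown to be bound.

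RefSeq promoters were matched for 43 of the 49 genes. TGACNNNGC was in 13 of them (30.2%) and in 13.6% of all 27305 promoters, and TGAGNNNGC was in 13 (30.2%) against 18.4%. CCAAT was in 20 (46.5%) against 35.7% and CCGGAAG in 14 (32.6%) against 10.7%. The 27305 promoters outnumber the 19951 protein-coding genes of the table and were not matched to the 43 in gene type or level. Whether these differences are particular to proteasome genes was not tested. Of the 14 matched genes that were lower with knockdown, 2 held TGACNNNGC, 3 TGAGNNNGC, 7 CCAAT and 5 CCGGAAG. Of the 29 others, 11, 10, 13 and 9 held them in the same order.

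Of the 49 genes, 47 passed the filter on low counts. PSMA8, the alpha subunit of the testis, and PSMB11, the beta subunit of the thymus, had 0 counts in every library, which allows at most 3 counts in each, or 0.101 to 0.129 CPM, for counting error only. With knockdown 16 of the 47 (34%) were lower and none was higher. Over all tested genes 11.9% were lower and 13.3% were higher. Counted at an unadjusted p under 0.05, 21 were lower and 0 higher, and DESeq2 called 18 lower and 0 higher. The shares of all tested genes at these cuts are not given here, so these counts have no background to be set beside. With the replicate number as a block 26 were lower and 1 was higher, beside 18.8% and 18.2% of all genes tested. Whether the numbers pair the libraries depended on the genes used. In bulk RNA, less RNA of a gene per cell and fewer cells expressing it cannot be told apart.

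The shift was small and ran through most of the genes. The median log2 fold change of the 47 was -0.12, beside 0.0039 over all tested genes, and 42 of the 47 were below 0, beside 49.3% of all tested genes. Every knockdown library was below every control library for 20 of the 47 (42.6%), beside 18.2% of all tested genes. The opposite order was seen for 1 gene, PSMG4 (2.13%), beside 20.6% of all tested genes. Proteasome genes took 0.568% to 0.577% of the counts of a control library and 0.521% to 0.528% of those of a knockdown library.

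Abundant genes as a class were lower as well, which sets another background for genes as abundant as these. Among 6494 protein-coding genes with a mean log2 CPM of at least 5, a limit chosen after the data were seen, 20.9% were lower, 62.6% were below 0 and the median log2 fold change was -0.05. Of the 40 proteasome genes past this limit, 15 were lower (37.5%), with a median of -0.13. With the trend of fold change with abundance removed, 11 genes were lower, beside 10.5% of all genes tested, and 36 of the 47 were below 0, with a median of -0.09. With the trends with GC content and length removed 30 were lower, but so were 25.7% of all genes, with 14.0% higher, and the median of all genes moved to -0.05. The median of the proteasome genes was then -0.19.

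**Figure D1:**
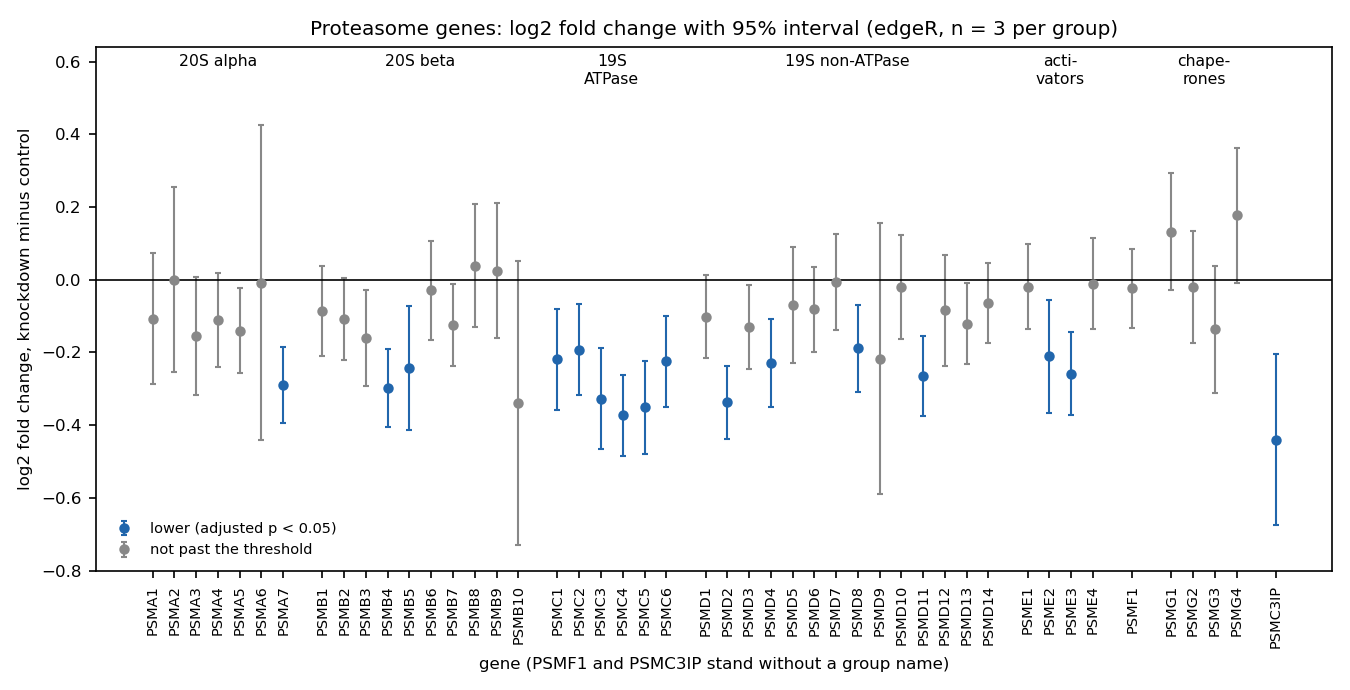
Log2 fold change (knockdown minus control, y axis) of the 47 tested genes by role (x axis), with bars for the 95% interval from edgeR, n = 3 libraries per group. The 16 genes past the threshold, in blue, all lie below 0, and the 6 ATPases are among them.

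The ATPases of the 19S cap form the ring that unfolds substrates and opens the gate of the core. All 6 were lower, beside 11.9% of all tested genes, with log2 fold changes of -0.37 to -0.19 and a median of -0.28. In each of them every knockdown library was below every control library, beside 18.2% of all tested genes. Their summed level was 903, 890 and 886 CPM in control replicates 1 to 3 and 727, 767 and 728 CPM in knockdown replicates 1 to 3, or 82.9% of control. PSMC4 was 170, 171 and 172 CPM in control and 130, 137 and 129 CPM in knockdown. Its log2 fold change was -0.37 (SE 0.0525, adjusted p = 5.1e-05, edgeR), the strongest of the 6 by both size and p.

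PSMC5 was 88.9, 83.0 and 80.8 CPM in control and 63.9, 66.2 and 68.1 CPM in knockdown, a log2 fold change of -0.35 (SE 0.0610, adjusted p = 4.0e-04, edgeR). The lowest control library lay well above the highest knockdown library. PSMC3 was 163, 137 and 160 CPM in control and 126, 116 and 125 CPM in knockdown (log2 fold change -0.33, SE 0.0664, adjusted p = 0.0015). Replicate 2 was the lowest library in both groups. PSMC6 was 114, 121 and 111 CPM in control and 97.3, 104 and 94.6 CPM in knockdown (log2 fold change -0.23, adjusted p = 0.0099), and here replicate 2 was the highest in both.

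The remaining ATPases were closer to the threshold. PSMC1 was 89.2, 82.9 and 76.1 CPM in control and 69.9, 69.8 and 73.6 CPM in knockdown (log2 fold change -0.22, adjusted p = 0.021). Control 3 and knockdown 3 came within a few CPM of each other, and the adjusted p was 0.13 without control 1 and 0.078 without knockdown 1. PSMC2, the most abundant ATPase, was 278, 295 and 286 CPM in control and 240, 274 and 238 CPM in knockdown (log2 fold change -0.19, adjusted p = 0.024). Knockdown 2 lay close to the control libraries. The adjusted p of PSMC2 was 0.054 without control 2, 0.076 without control 3, 0.11 without knockdown 1 and 0.085 without knockdown 3. With the abundance trend removed it was 0.065 for PSMC1 and 0.099 for PSMC2. Then 4 of the 6 were lower, beside 10.5% of all tested genes.

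Some exons of PSMC1 overlap NRDE2 on the other strand, which covers 75.8% of its exonic bases, and whether counting used the strand is not stated. PSMC1 also has 13 pseudogenes in the table, and their counts came to 6.44% of its own. PSMC4 lies on chr19:39971005-39981441, PSMC5 on chr17:63827152-63832026 and PSMC3 on chr11:47418769-47426473 (GRCh38, gene bounds of the table), so the strongest changes were on 3 chromosomes.

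**Figure D2:**
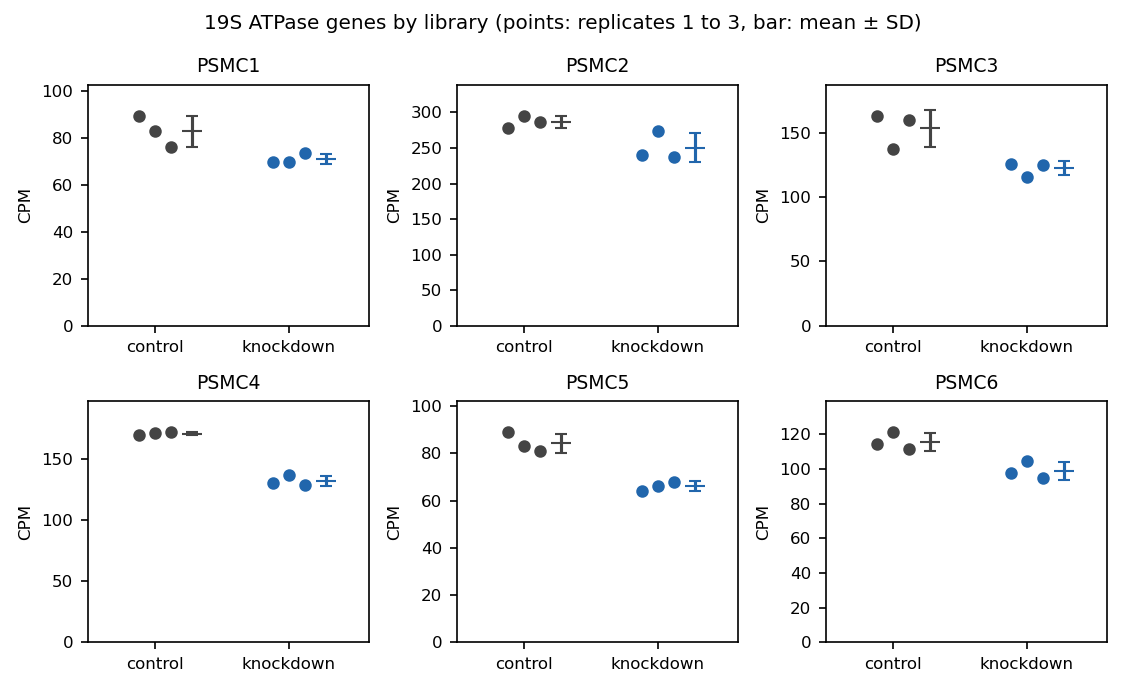
TMM-normalised level (CPM, y axis from 0) of the 6 ATPase genes in each control and knockdown library (x axis), with the mean and SD beside the points. In each panel the 3 knockdown points lie below the 3 control points, with the narrowest gaps for PSMC1 and PSMC2.

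The non-ATPase genes of the cap hold its scaffold, its ubiquitin receptors and its deubiquitinase. Of the 14, 4 were lower (PSMD2, PSMD4, PSMD8 and PSMD11) and none was higher. Of all tested genes 11.9% were lower and 13.3% higher, and of the abundant protein-coding genes 20.9% were lower. All 14 were below 0, with a median of -0.11. Their summed level was 88.1% of control. PSMD2, a large scaffold subunit that binds ubiquitin-like domains, was the most abundant of the 49 genes in CPM. It was 684, 647 and 673 CPM in control and 538, 520.5 and 527 CPM in knockdown. The log2 fold change was -0.34 (SE 0.0474, adjusted p = 4.9e-05, edgeR), the smallest adjusted p among the 49, and the groups were far apart.

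PSMD11, a subunit of the lid, was 168, 162 and 164 CPM in control and 137, 140 and 134 CPM in knockdown (log2 fold change -0.26, SE 0.0522, adjusted p = 0.0012, edgeR). The groups did not overlap. PSMD4, a ubiquitin receptor, was 123, 118 and 125 CPM in control and 107, 97.9 and 108 CPM in knockdown (log2 fold change -0.23, adjusted p = 0.0074, and 0.052 without control 3). PSMD8, another lid subunit, had a log2 fold change of -0.19 (adjusted p = 0.022). Its adjusted p was 0.085 without control 1, 0.11 without control 3, 0.061 without knockdown 1 and 0.12 with the abundance trend removed.

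The other 10 non-ATPase genes did not pass the test. PSMD14, the deubiquitinase of the lid, was at 170, 179 and 173 CPM in control and 164, 170 and 164 CPM in knockdown, with a log2 fold change of -0.06 (95% interval -0.18 to 0.05). PSMD1, the other large scaffold subunit, was at -0.10 (95% interval -0.22 to 0.01). PSMD3 and PSMD13 were at -0.13 (adjusted p = 0.092) and -0.12 (adjusted p = 0.10), and in both the groups did not overlap. PSMD6 (-0.08), PSMD12 (-0.08) and PSMD7 (-0.01) were nearer to 0. Of these 14, PSMD5, PSMD9 and PSMD10 are chaperones of cap assembly and not subunits. Their summed level was 96.5% of control, against 87.4% for the 11 subunits.

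The alpha subunits form the outer rings of the core and its gate. Of the 7 tested, 1 was lower, beside 11.9% of all tested genes and 20.9% of the abundant protein-coding genes. The summed level of the group was 87.5% of control. The mean sum was 677 CPM in control and 592 CPM in knockdown, of which PSMA7 alone made up 280 and 229 CPM. The median log2 fold change of the 7 was -0.11. PSMA7 was the highest of all 49 genes by level per length, at 575 ± 6.16 counts per kilobase, scaled to a sum of 1000000 over genes, in control (SD, n = 3). It was 277, 277 and 286 CPM in control and 223, 234 and 231 CPM in knockdown. The log2 fold change was -0.29 (SE 0.0499, adjusted p = 3.7e-04, edgeR), and it stayed past the threshold with any library left out. PSMA5 was 92.7, 93.9 and 93.6 CPM in control and 85.5, 85.5 and 83.2 CPM in knockdown. The groups did not overlap, but its log2 fold change of -0.14 did not pass the test (adjusted p = 0.073).

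PSMA3 was at -0.16 (adjusted p = 0.16), PSMA4 at -0.11 (0.20) and PSMA1 at -0.11 (0.40), each with overlapping groups. PSMA2 and PSMA6 read as low as 6.65 to 7.83 CPM and 1.81 to 2.47 CPM, with log2 fold changes of 0.00017 and -0.01. Their levels per length were 4.79 ± 0.305 and 1.17 ± 0.179 in control, far under those of the other alpha subunits, although the core holds the same number of each. Exons of other genes on the same strand cover 97.1% of the coding bases of PSMA2, 70.4% of those of PSMA6 and 88.6% of those of PSMA1. Reads in shared exons may have been left out of the counts, so the levels of these genes are uncertain. The same holds for PSMB10 (58.3%) and PSMD9 (58.7%). None of these 5 genes was lower, and without them 16 of the 42 tested genes were, beside 11.9% of all tested genes.

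**Figure D3:**
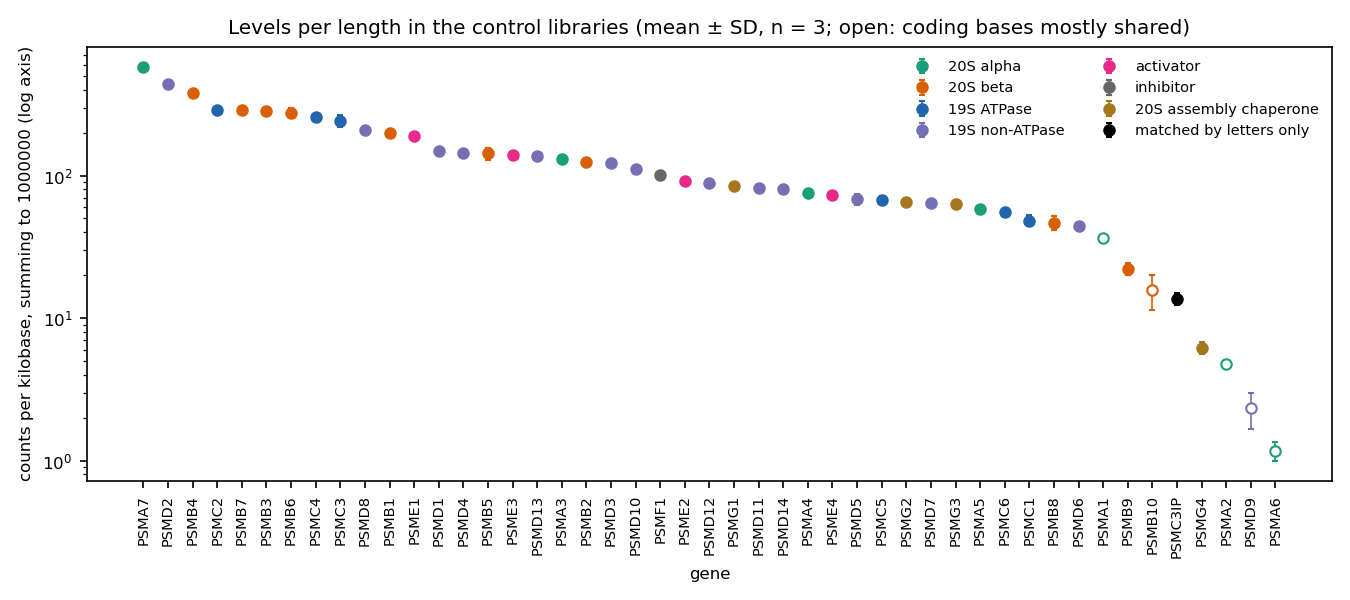
Counts per kilobase of exonic length, scaled to a sum of 1000000 over genes (log y axis), in the control libraries for the 47 tested genes (x axis), ordered by level and coloured by role, with mean and SD over 3 libraries. PSMA7 stands highest at 575, and the 5 open points, whose coding bases are mostly shared with other genes, lie at the low end.

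The beta subunits carry the cutting sites. Of the 10 tested, 2 were lower, PSMB4 and PSMB5, beside 11.9% of all tested genes and 20.9% of the abundant protein-coding genes. The summed level of the group was 90.3% of control. PSMB4, which has no cutting site, was 231, 222 and 229 CPM in control and 182, 183 and 190 CPM in knockdown. The log2 fold change was -0.30 (SE 0.0511, adjusted p = 3.5e-04, edgeR) and the groups were well apart.

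PSMB5, the site that cuts after hydrophobic residues and the target of bortezomib, was 73.9, 62.6 and 74.9 CPM in control and 60.6, 53.3 and 64.7 CPM in knockdown. Knockdown 3 was above control 2, so the groups overlapped. The log2 fold change of -0.24 (SE 0.0804) passed the test (adjusted p = 0.034, edgeR) but not without control 1 (0.10), control 3 (0.16), knockdown 1 (0.079) or knockdown 2 (0.10), nor with the abundance trend removed (0.088). PSMB6, which cuts after acidic residues, was 115, 101 and 116 CPM in control and 111, 103 and 113 CPM in knockdown (log2 fold change -0.03, 95% interval -0.16 to 0.11). PSMB7, which cuts after basic residues, was 147, 145 and 139 CPM in control and 129, 134 and 132 CPM in knockdown. Its groups did not overlap, and its log2 fold change of -0.12 did not pass the test (adjusted p = 0.098).

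Of the structural beta subunits, PSMB3 was at -0.16 (adjusted p = 0.069), PSMB2 at -0.11 (0.16) and PSMB1 at -0.09 (0.32). The inducible subunits of the immunoproteasome were nearer to 0 or noisy. PSMB8 was 43.5, 34.8 and 38.9 CPM in control and 38.9, 39.5 and 42.0 CPM in knockdown (log2 fold change 0.04, 95% interval -0.13 to 0.21). PSMB9 was 20.8, 17.7 and 18.1 CPM in control and 19.8, 18.8 and 19.04 CPM in knockdown (log2 fold change 0.02, 95% interval -0.16 to 0.21). PSMB10 had the largest log2 fold change of the beta group, -0.34, but it was 10.7, 7.01 and 6.66 CPM in control and 6.42, 4.78 and 8.02 CPM in knockdown. Control 1 stood above the rest, knockdown 3 lay above both other control libraries, and the adjusted p was 0.20.

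Each inducible subunit takes the place of a constitutive one, so the ratio of their counts was compared within each library. PSMB8 counts were 58.9%, 55.5% and 51.9% of PSMB5 counts in control and 64.1%, 74.2% and 64.9% in knockdown. The groups did not overlap, and the log2 ratio was 0.29 higher with knockdown. The two-sided exact permutation p was 0.10, which is the smallest that 3 against 3 libraries allow. PSMB9 to PSMB6 was 17.0% ± 1.26 in control and 17.7% ± 0.721 in knockdown (SD, n = 3, exact permutation p = 0.60). PSMB10 to PSMB7 was 5.62% ± 1.40 and 4.87% ± 1.24 (SD, n = 3, exact permutation p = 0.60). These are 3 ratios, and with adjustment over them none could pass 0.05.

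**Figure D4:**
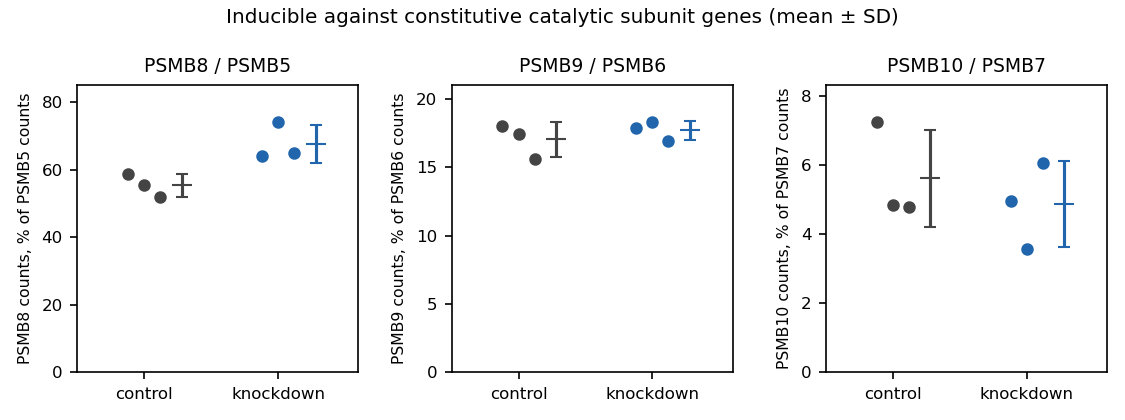
Counts of each inducible catalytic subunit gene as a percent of the counts of the constitutive gene whose place it takes (y axis from 0) in each library, with the mean and SD beside the points. For PSMB8 to PSMB5 the 3 knockdown points, 64.1% to 74.2%, lie above the control points, and the other 2 ratios overlap between groups.

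The activators open the core without ubiquitin, and 2 of the 4 were lower, beside 11.9% of all tested genes. PSME3, the nuclear activator, was 198, 206 and 201 CPM in control and 168, 176 and 161 CPM in knockdown. The groups did not overlap, and the log2 fold change was -0.26 (SE 0.0536, adjusted p = 0.0018, edgeR). PSME2, a subunit of the interferon-inducible activator, was 89.9, 93.7 and 90.5 CPM in control and 72.1, 74.5 and 90.02 CPM in knockdown. Its log2 fold change was -0.21 (adjusted p = 0.045). Knockdown 3 was at the control level, and the adjusted p of PSME2 was 0.059 without control 1, 0.079 without control 2, 0.10 without control 3, 0.20 without knockdown 1 and 0.0954 without knockdown 2. It was 0.052 with at least 10 counts asked of every library and 0.13 with the abundance trend removed.

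PSME1, the partner of PSME2 in the same ring, was 92.3, 93.2 and 96.7 CPM in control and 93.2, 94.9 and 90.4 CPM in knockdown (log2 fold change -0.02, 95% interval -0.14 to 0.10). PSME4 was at -0.01 (95% interval -0.14 to 0.11). The inhibitor PSMF1 was 148, 149 and 146 CPM in control and 147, 144 and 145 CPM in knockdown. Its log2 fold change was -0.02 (95% interval -0.13 to 0.08), which excludes a fall of 0.3.

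The chaperones of core assembly are not part of the finished protease. None of the 4 passed the test, and their summed level was 102.4% of control. PSMG1 was 57.4, 63.0 and 58.3 CPM in control and 65.3, 72.4 and 58.2 CPM in knockdown (log2 fold change 0.13, adjusted p = 0.22). PSMG4 was 19.7, 16.3 and 17.8 CPM in control and 20.2, 20.2 and 20.5 CPM in knockdown. It was the 1 gene of the 49 with every knockdown library above every control library, but its log2 fold change of 0.18 did not pass the test (adjusted p = 0.16). PSMG2 and PSMG3 were at -0.02 and -0.14. The median of the 4 was 0.06, and it was -0.0095 with GC content and length trends removed.

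PSMC3IP, the recombination cofactor that met the rule by its letters, was lower as well. It was 10.6, 8.86 and 9.97 CPM in control and 7.31, 7.14 and 7.25 CPM in knockdown (log2 fold change -0.44, adjusted p = 0.0075). Without it 15 of 46 tested genes were lower, beside 11.9% of all tested genes.

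Not passing the test does not show that a gene stayed level. Of the 31 tested genes that did not pass, 26 were below 0. For 26 of the 31, the 95% interval excluded a fall of 0.3 on the log2 scale. At the other end, 10 of the 16 lower genes stayed past the threshold with any of the 6 libraries left out and under every one of the 14 alternatives that set no minimum fold change. These were PSMA7, PSMB4, PSMC3, PSMC4, PSMC5, PSMC6, PSMD2, PSMD11, PSME3 and PSMC3IP.

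**Figure D5:**
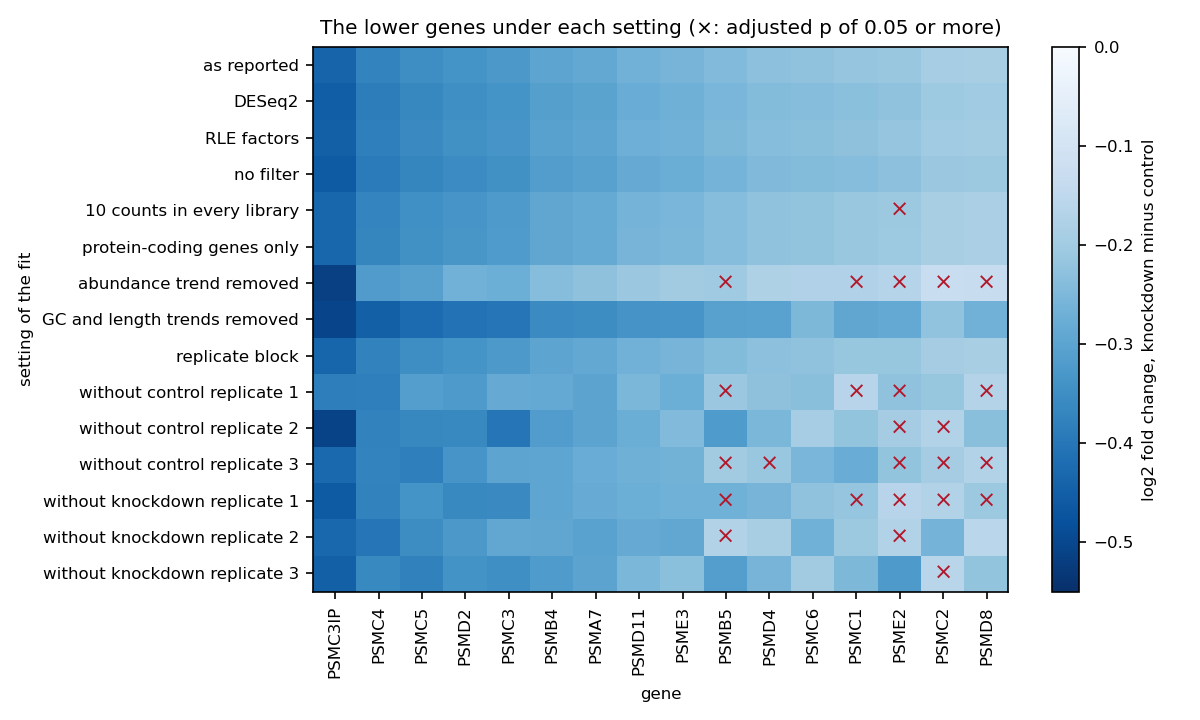
Log2 fold change (colour) of the 16 lower genes (x axis, ordered by fold change as reported) under each setting of the fit (y axis), with a red cross where the adjusted p was 0.05 or more. All cells are below 0, and the crosses fall in 6 genes: PSMB5, PSMC1, PSMC2, PSMD4, PSMD8 and PSME2.

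The median log2 difference of the 47 genes from their control mean was -0.01, 0.0027 and -0.00044 in control replicates 1 to 3 and -0.15, -0.11 and -0.13 in knockdown replicates 1 to 3. For the ATPases it was -0.27, -0.28 and -0.29 in the knockdown libraries. For the alpha subunits it was -0.13, 0.04 and -0.23, so knockdown 2 stood apart from the other two there. For the beta subunits it was 0.05, -0.10 and 0.01 in the control libraries and -0.13, -0.13 and -0.05 in the knockdown libraries, so that control 2 lay below knockdown 3. Over the 47 genes, the log2 fold change correlated with GC content (Pearson's r = -0.31, Spearman's rho = -0.36), with log2 CPM (-0.18 and -0.29) and with log2 length (0.19 and 0.18). These are correlations across genes of the same libraries and are given as a description.

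Genes that work with the proteasome were taken from a list of 36, covering receptors, shuttles, ubiquitin genes and regulators. All 36 were tested, 9 were lower and none was higher, beside 11.9% and 13.3% of all tested genes. Of the 35 with a mean log2 CPM of at least 5, 9 were lower (25.7%), beside 20.9% of the protein-coding genes past that limit. With the abundance trend removed, 6 of the 36 were lower and 2 were higher (AKIRIN2 and RPS27A). In that fit 10.5% of all tested genes were lower and 12.4% were higher. Counted at an unadjusted p under 0.05, 1 was higher (AKIRIN2, log2 fold change 0.13, unadjusted p = 0.044, edgeR). The number lower at that cut is not given here. DESeq2 called 9 lower and 0 higher. Shares of all tested genes at the unadjusted cut and with DESeq2 are not given. The median log2 fold change was -0.08. ADRM1, a ubiquitin receptor of the cap, was 142, 123 and 121 CPM in control and 103, 93.8 and 109 CPM in knockdown (log2 fold change -0.34, SE 0.0703, adjusted p = 0.0019, edgeR). SEM1, a small subunit of the lid, was at -0.11 (adjusted p = 0.28).

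Among the shuttles and the ubiquitin-unfolding machinery, NPLOC4, a cofactor of the segregase VCP, was 148, 138 and 139 CPM in control and 120, 107 and 113 CPM in knockdown (log2 fold change -0.32, adjusted p = 6.6e-04). The shuttle gene RAD23B was at -0.23 (adjusted p = 0.0042). VCP itself was at -0.14 (0.039). The adjusted p of VCP was 0.072, 0.076 and 0.14 without control 1, 2 and 3, and 0.13 and 0.094 without knockdown 1 and 3. With the abundance trend removed it was 0.30.

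The proteasome-bound ligase UBE3C was at -0.19 (adjusted p = 0.0091, and 0.067 with the abundance trend removed) and the scaffold ECPAS at -0.24 (0.0051). Of the transcription factors, MAFF was lower at -0.30 (0.016, but 0.075 without control 1 and 0.059 without control 3), and so was IRF1, which drives the immunoproteasome genes, at -0.26 (0.012, but 0.075 without control 1). NFE2L1 was 185, 156 and 163 CPM in control and 164, 150 and 164 CPM in knockdown (log2 fold change -0.08, 95% interval -0.21 to 0.06). NFE2L2 was at -0.10 (adjusted p = 0.37, but 0.031 without knockdown 2), and the core maturation factor POMP at 0.02 (adjusted p = 0.79). With GC content and length trends removed, NFE2L1 was at -0.15 (adjusted p = 0.0067, edgeR) and NFE2L2 at -0.17 (0.014). In that fit 25.7% of all tested genes were lower.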

How the data were processed

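Total RNA was extracted with TRIzol and made into libraries with the NEBNext Ultra kit. The authors deposited raw counts per gene, without normalization. The submitters' processing notes name CASAVA 1.8, fastp, HISAT2 2.0.5, featureCounts 1.5.0-p3 and DESeq2 1.20.0, and GRCh38. Strand and the handling of shared reads are not given in the sources used here. Positions and lengths of all 58735 genes matched GENCODE 29.

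The study's methods state no test for these counts. Genes were filtered with filterByExpr, normalised with TMM and tested with edgeR 4.0.16 (quasi-likelihood) in R 4.3.3, with Benjamini-Hochberg adjustment over 17574 genes and a threshold of 0.05. Intervals are 95%. The SE was taken from the log2 fold change and the F statistic. Levels per length use the exonic length of the table. The edgeR and DESeq2 steps were run on simulated counts, with planted changes larger than any proteasome gene showed in the main fit. The permutation test and the promoter search were not tested in this way. Ratios were tested by exact permutation (scipy 1.17.1).

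The members and lists were chosen with earlier results of these data known. In each group the 2 tested genes with the smallest adjusted p and the 1 with the largest absolute log2 fold change, the catalytic beta subunits, CNOT7, and of the list of 36 the genes past the threshold with NFE2L1, NFE2L2, POMP, ADRM1 and SEM1, were to be named with values. Further genes are named to account for all members, and AKIRIN2 and RPS27A were named after their values were seen. An item of the list of 36 is not reported here. Alternatives were DESeq2 1.42.0, RLE factors, 2 other filters, removal of abundance or GC and length trends (loess, span 0.3), protein-coding genes only, a minimum log2 fold change of 0.3, leaving out each library, and the replicate number as a term. Replicates differed by more than sampling noise.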

Additional observations from a re-analysis of the deposited data

How the results depend on the processing

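DESeq2, RLE factors, either other filter and protein-coding genes only left the count of lower proteasome genes within 1.5 times 16. Removing the trends with GC content and length gave 30, beside 25.7% of all tested genes, and with a minimum log2 fold change of 0.3 it was 5. Leaving out 1 library gave 11 to 18 lower and 0 higher. For the minimum fold change and for fits with 1 library left out, the shares of all tested genes are not given here. Nor are they given for DESeq2, RLE factors, the other filters and protein-coding genes only, and the same holds for the list of 36. In the list of 36, 20 were lower with GC content and length trends removed, beside 25.7% of all tested genes. With the abundance trend removed 2 were higher, beside 12.4% of all tested genes. With 1 library left out 5 to 11 were lower and 0 higher, with 5 without control 1. Summed per length in place of CPM, the knockdown level was 91.3% of control for the non-ATPase genes, 93.0% for the beta subunits, 95.1% for the activators and 101.5% for the inhibitor, which turns its direction. With 1 library left out the log2 ratio of PSMB9 to PSMB6 ran from -0.00489 (without control 3) to 0.10, that of PSMB8 to PSMB5 from 0.22 to 0.33, and that of PSMB10 to PSMB7 from -0.39 to -0.00798. The cause of these changes was not tested.

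Libraries of the same number did not deviate together in every pair over all tested genes (r = 0.02, 0.15 and -0.02), but did over genes with a log2 CPM over 4 (0.285, 0.70 and 0.17), where knockdown 3 correlated more with control 1 (0.61). Whether the numbers pair the samples was therefore not settled. With a replicate block 26 proteasome genes were lower and 1 was higher (PSMG1, adjusted p = 0.037, edgeR), beside 18.8% and 18.2% of all genes tested, and in the list of 36 the numbers lower and higher were 12 and 1. The genes it added as lower were PSMA3, PSMA4, PSMA5, PSMB2, PSMB3, PSMB7, PSMB10, PSMD1, PSMD3 and PSMD13, with adjusted p from 0.0023 (PSMA3) to 0.049 (PSMB10). The intervals of PSMA3, PSMA6, PSMB10, PSMD9 and PSMG3 reached from falls past 0.3 to rises.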

Other observations

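The symbol pattern also matched 37 genes that are not protein-coding, of which 8 were tested and none passed the threshold. PSMG3-AS1, an antisense RNA of PSMG3, was 9.84, 8.08 and 9.46 CPM in control and 12.4, 10.04 and 11.3 CPM in knockdown (log2 fold change 0.30, adjusted p = 0.067, edgeR), with no overlap between groups, while PSMG3 itself was at -0.14. The pseudogene PSMC1P1 was 4.86, 3.48 and 4.95 CPM in control and 3.65, 3.77 and 2.72 CPM in knockdown (log2 fold change -0.40, adjusted p = 0.11). The pseudogene PSMD10P1 was at 7 to 40 counts in a library, with a log2 fold change of 1.06 (SE 0.399, adjusted p = 0.061). PSMG3-AS1 covers 3.06% of the exonic bases of PSMG3 and none of its coding bases. Reads of a pseudogene may come from its parent gene.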
